A study of Tachysurus fulvidraco x Tachysurus vachelli with 9 samples.

Results

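Enpp7, aquaporin-8 (Aqp8) and patched domain-containing protein 3 (Ptchd3) are 3 genes of the posterior intestine of hybrid yellow catfish that were selected on these data, as abundant genes whose level was lower after transport, in order to compare how far each returned. They were found by the identifiers LOC113650486 (Enpp7), LOC113637196 (Aqp8) and LOC113656627 (Ptchd3), each of which names 1 row of the 26163 genes in the table. All 3 passed the filter on low values, as did 17244 genes in all. The difference between Str and Ctrl chose them and is therefore described without a test.

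The hybrid comes from a Tachysurus fulvidraco mother and a vachellii father. The Ctrl group was untreated (0 h). The Str group was sampled at the end of 16 h of simulated transport in bags on a shaker, and the Rec group had the same 16 h of transport and then 96 h of recovery. Each group has 3 fish, with 1 library per fish. No source names the bag from which a sequenced fish came, so the p-values below measure only the spread between 3 fish. Food was withheld before the simulated transport, and how the fish were fed during recovery is not given. The only control that was sequenced is the 0 h group, with no control matched in time to Str or Rec. Transport therefore cannot be told apart from the time of sampling or from a different time without food. The libraries hold 48605412 to 73110636 expected counts. In every library this total exceeds the number of valid reads that the paper lists, so 1 expected count is not 1 read. An alternative fit divided these counts by 4, taking 1 read pair as 4 of them, a ratio that no source states. Levels below are FPKM, which are scaled to gene length and library depth.

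Enpp7, also called alkaline sphingomyelinase, is known from mammals as an enzyme of the intestinal brush border. It works in the presence of bile salts and splits dietary sphingomyelin into ceramide and phosphocholine. Aquaporin-8 is a channel for water that also passes ammonia and hydrogen peroxide, and in mammals it is found in the intestinal epithelium, liver and pancreas. Ptchd3 is a membrane protein of the family of Patched, the receptor for Hedgehog ligands, and of the sterol transporter Npc1. In mice it is known mainly from male germ cells, and its role in the intestine is not established. In the annotation of the table, Enpp7 belongs to sphingolipid metabolism, Aqp8 to bile secretion and Ptchd3 to the lysosome.

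The Enpp7 gene spans 8687 bases on the plus strand of scaffold NW_020847890.1, from 1472357 to 1481043, in the coordinates of the table, for which no genome build is named in the sources. In Str, Enpp7 had 19.0, 10.5 and 4.40 FPKM, against 239, 104 and 214 FPKM in Ctrl. Every Str library was below every Ctrl library, and the Str mean was 6.09% of the Ctrl mean. In Rec, Enpp7 had 244, 65.7 and 172 FPKM, so that every Rec library was above every Str library and the Rec libraries spanned the Ctrl ones. Over the stages, the mean was 185 ± 71.5 FPKM in Ctrl, 11.3 ± 7.32 FPKM in Str and 161 ± 89.8 FPKM in Rec (SD, n = 3 each). By mean FPKM, Enpp7 ranked 316th of all genes in Ctrl, 5105th in Str and 397th in Rec. Its lowest count was 462, in Str-3, so counting error was small beside the differences between fish.

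The Aqp8 gene spans 2042 bases on the minus strand of scaffold NW_020848232.1, from 1304076 to 1306117. In Str, Aqp8 had 10.5, 16.0 and 2.69 FPKM, against 199, 60.5 and 163 FPKM in Ctrl. The Str mean was 6.90% of the Ctrl mean, and again no libraries overlapped. In Rec, Aqp8 had 143, 166 and 189 FPKM, all above every Str library. The Rec libraries were the most alike of any group for this gene, with a highest value 1.32 times the lowest, against 5.94 times in Str and 3.29 times in Ctrl. The mean was 141 ± 72.0 FPKM in Ctrl, 9.72 ± 6.69 FPKM in Str and 166 ± 22.9 FPKM in Rec (SD, n = 3 each). Aqp8 ranked 402nd by mean FPKM in Ctrl, 5850th in Str and 390th in Rec. Ctrl-2 was the lowest Ctrl library for both Aqp8 and Enpp7.

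The Ptchd3 gene spans 7291 bases on the plus strand of scaffold NW_020847980.1, from 302537 to 309827. In Str, Ptchd3 had 17.1, 9.04 and 8.23 FPKM, against 132, 245 and 323 FPKM in Ctrl. The Str mean was 4.91% of the Ctrl mean. In Rec, Ptchd3 had 40.6, 80.7 and 14.1 FPKM. Rec-3 thus lay below Str-1, and the highest Rec library lay below the lowest Ctrl library. The mean was 233 ± 96.0 FPKM in Ctrl, 11.5 ± 4.91 FPKM in Str and 45.1 ± 33.5 FPKM in Rec (SD, n = 3 each). Ptchd3 was the most abundant of the 3 genes in Ctrl, at rank 259, and the least abundant in Rec, at rank 1281, with rank 5037 in Str. In Ctrl its fish-to-fish order differed from that of the other genes: Ctrl-1, the highest Ctrl library for Enpp7 and Aqp8, was the lowest for Ptchd3. In Str its order was that of Enpp7, and in Rec the order differed between all 3 genes.

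**Figure D1:**
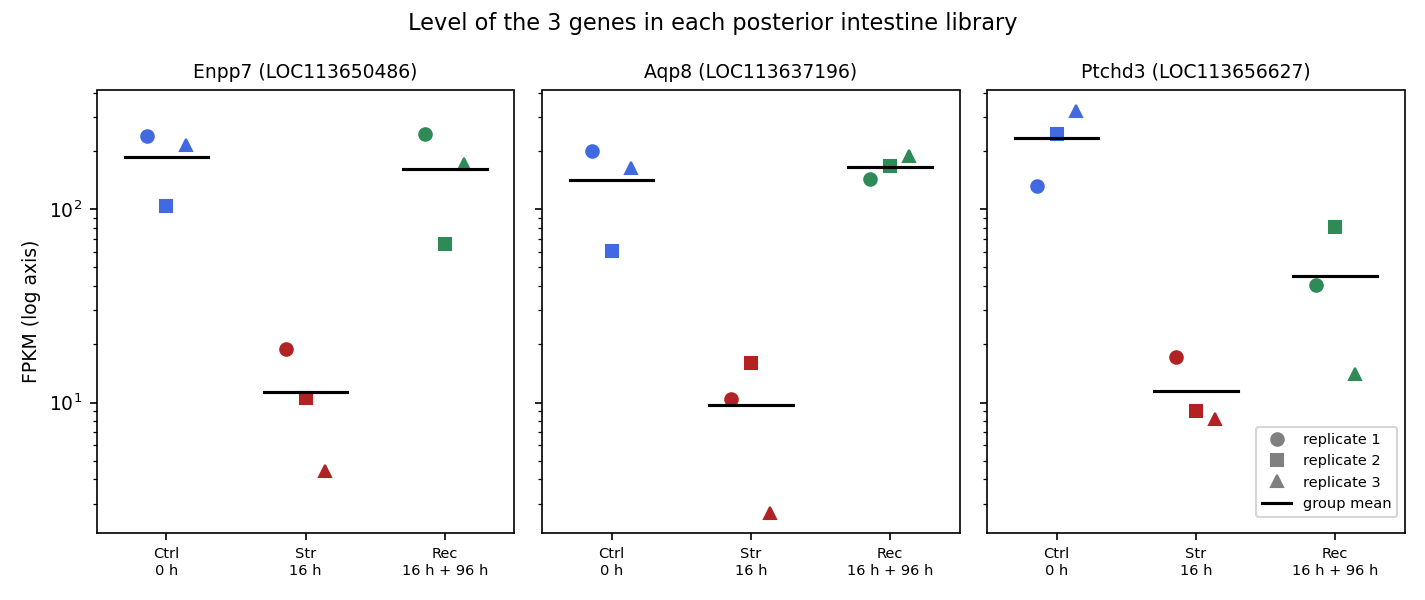
FPKM on a log axis of Enpp7, Aqp8 and Ptchd3 in every library, with the groups in order of time: Ctrl at 0 h, Str after 16 h in transport, Rec after 96 h more; symbols mark the replicate and black lines the group mean. Enpp7 and Aqp8 lie at 65.7 FPKM or more in Rec, whereas Ptchd3 lies between 14.1 and 80.7 FPKM there, below the 132 FPKM of the lowest Ctrl library.

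The fitted log2 fold change in Str vs. Ctrl was -4.03 ± 0.69 for Enpp7, -3.84 ± 0.72 for Aqp8 and -4.25 ± 0.71 for Ptchd3 (SE, n = 3 per group). These values, which correspond to 16.3-fold, 14.4-fold and 19.1-fold lower levels, stand within 1 SE of each other. By the size of the decrease, the genes ranked 118th, 135th and 104th of the 17244 tested. Among all tested genes, 534 fell in Str vs. Ctrl (3.10%) and 480 rose (2.78%), at an adjusted p below 0.05 in edgeR's quasi-likelihood test. In bulk tissue, fewer cells of a type and less RNA per cell cannot be told apart.

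The return was measured in Rec vs. Str. There, Aqp8 rose by a log2 fold change of 4.19 (95% interval 2.54 to 5.83), an 18.2-fold higher level, with an adjusted p of 0.0137 in edgeR. Enpp7 rose by 3.90 (95% interval 2.36 to 5.44), a 14.9-fold higher level, with an adjusted p of 0.0139 in edgeR. Ptchd3 had a log2 fold change of 2.19 (95% interval 0.72 to 3.65), a 4.55-fold higher level, but its adjusted p in edgeR was 0.0681. So 2 of the 3 genes passed the test, against 868 of all tested genes, or 5.03%, that rose in Rec vs. Str. Every Rec library was above every Str library for Enpp7 and Aqp8, as for 2039 genes (11.8%), and not for Ptchd3. The Str libraries took part in choosing the genes for their low values, so a return in Rec was favored by the choice, and these tests are not independent of it.

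Single libraries decided some of these calls. Without Str-3, the lowest Str library for Enpp7 and Aqp8, the adjusted p of Enpp7 in edgeR was 0.0529, at a log2 fold change of 3.51. Over all its alternatives the adjusted p of Enpp7 was 3.81e-09 to 0.0529, and that of Aqp8 1.11e-09 to 0.0452. Without Rec-3, the Rec library that overlapped with Str, Ptchd3 passed the test at a log2 fold change of 2.64 and an adjusted p of 0.0222 in edgeR. It also passed in DESeq2, with an adjusted p of 0.00282, and its adjusted p over all alternatives was 0.00282 to 0.215.

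Rec vs. Ctrl asks what remained after 96 h. The log2 fold change was -0.13 for Enpp7 (95% interval -1.50 to 1.24) and 0.34 for Aqp8 (95% interval -1.10 to 1.79), with adjusted p of 0.992 and 0.974 in edgeR. These intervals leave room for levels more than 2 times apart in either direction, so they do not show that the genes were back at the Ctrl level. For Ptchd3 the log2 fold change was -2.07 (95% interval -3.53 to -0.61), a 4.20-fold lower level in Rec. The interval does not include 0, but the adjusted p over all genes in edgeR was 0.822. Every Rec library was below every Ctrl library for Ptchd3, as for 1279 genes (7.42%). The mean in Rec as a percentage of that in Ctrl was 86.6% for Enpp7, 118% for Aqp8 and 19.3% for Ptchd3.

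Over all genes, edgeR called 0 (0%) in Rec vs. Ctrl at an adjusted p below 0.05, with 1002 below 0.05 before adjustment. DESeq2 called 115 and limma on log2(FPKM + 1) called 0. Ptchd3 was not among the genes called by any tool, and its smallest adjusted p over the alternatives was 0.0735, in DESeq2 (the highest was 1.00). It had the 204th lowest log2 fold change of the 17244 genes in this comparison. Of the 534 genes that fell in Str vs. Ctrl, 3 had a lower log2 fold change in Rec vs. Ctrl than Ptchd3, 306 a lower one than Enpp7 and 439 a lower one than Aqp8. Both comparisons share the Ctrl libraries, in which the genes were chosen to be high, so a lower value in Rec was favored for all of them.

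**Figure D2:**
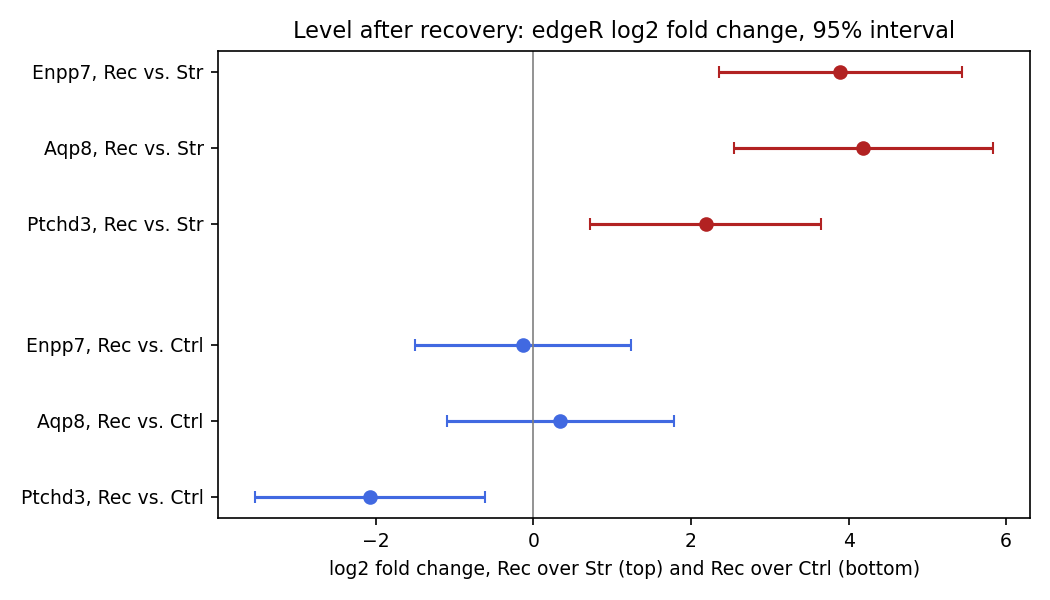
edgeR log2 fold change with its 95% interval (bars, n = 3 fish per group) of each gene in Rec over Str (top) and Rec over Ctrl (bottom). Against Str, the intervals of Enpp7 and Aqp8 lie above 2 and that of Ptchd3 between 0.72 and 3.65. Against Ctrl, the first pair includes 0 and Ptchd3 lies below it.

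The difference in return was tested within libraries, on the log2 ratio of FPKM between 2 of the genes, which cancels library depth. The log2 ratio of Aqp8 over Ptchd3 was 1.82, 1.04 and 3.74 in Rec, against 0.59, -2.02 and -0.99 in Ctrl and -0.71, 0.82 and -1.61 in Str. All 3 Rec libraries were above all Ctrl and Str libraries. The ratio was on average 3.00 higher on the log2 scale in Rec than in Ctrl and 2.70 higher in Rec than in Str. The exact permutation test, two-sided, gave p = 0.1 for both, which is the smallest p that 3 against 3 libraries allow, and 0.3 after adjustment over the 6 tests made. This test thus cannot go below 0.05 with 3 libraries a group.

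The log2 ratio of Enpp7 over Ptchd3 was 2.59, -0.30 and 3.60 in Rec, against 0.85, -1.24 and -0.60 in Ctrl. Rec-2, the Rec library with the lowest Enpp7 and the highest Ptchd3, fell among the Ctrl libraries. The mean difference was 2.29 in Rec vs. Ctrl (exact permutation p = 0.2, adjusted 0.36) and 2.15 in Rec vs. Str (exact permutation p = 0.3, adjusted 0.36). The ratio of Aqp8 over Enpp7 differed by 0.71 in Rec vs. Ctrl (exact permutation p = 0.3, adjusted 0.36) and by 0.55 in Rec vs. Str (exact permutation p = 0.6, adjusted 0.6), with overlapping groups in both.

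**Figure D3:**
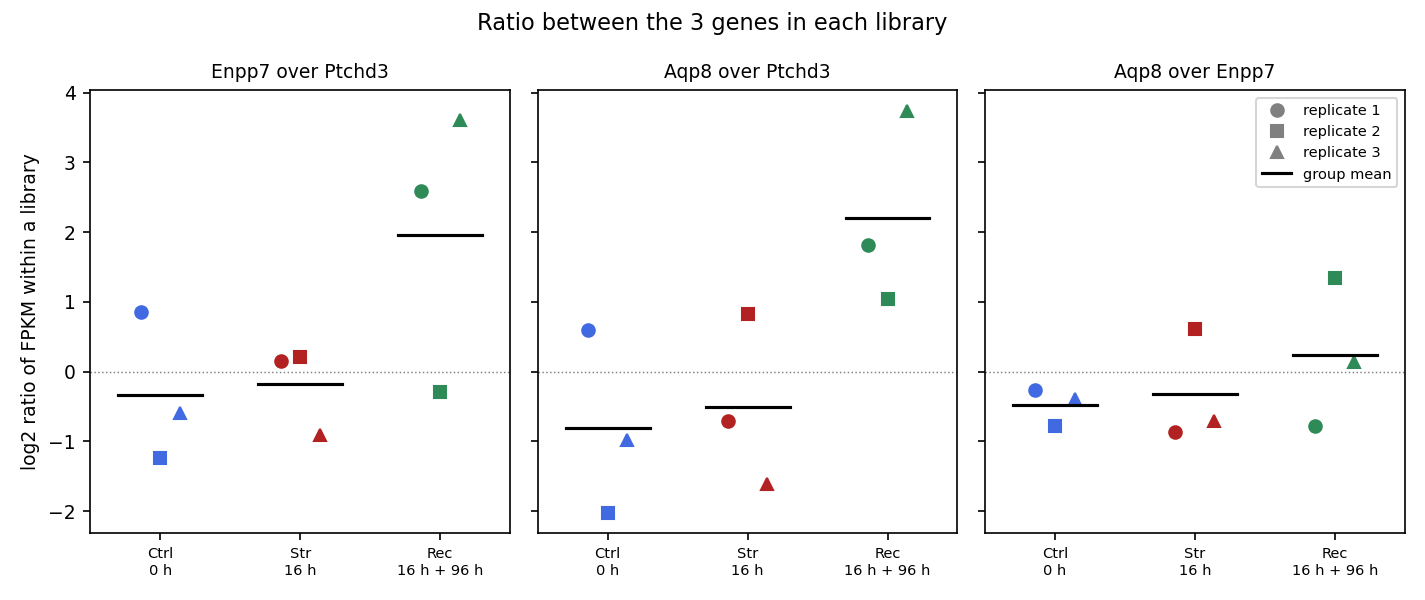
log2 ratio of FPKM between each pair of the 3 genes in every library, with the groups in order of time; symbols mark the replicate, black lines the group mean and the dotted line a ratio of 1 (log2 of 0). For Aqp8 over Ptchd3 the 3 Rec libraries lie between 1.04 and 3.74, above the 0.82 of the highest Str and the 0.59 of the highest Ctrl library.

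The gene called Aqp8 here, LOC113637196, has the product aquaporin-8-like, and a neighbor carries the plain name. This neighbor, LOC113637104 (aquaporin-8), lies on the same strand of the same scaffold (1298336 to 1299988), 4088 bases from LOC113637196. It had 34.1, 139 and 25.1 FPKM in Str, against 621, 540.4 and 403 FPKM in Ctrl, and in each library it had a higher level than LOC113637196. In Str vs. Ctrl it fell by 2.94 on the log2 scale (adjusted p = 0.0375 in edgeR, called in 11 of 18 alternatives). In Rec it had 432, 205 and 457 FPKM, and it rose in Rec vs. Str by a log2 fold change of 2.51 (adjusted p = 0.0471 in edgeR, called in 7 of 18 alternatives). In Rec vs. Ctrl its log2 fold change was -0.43, with an adjusted p of 0.962 in edgeR. Summed over the 3 aquaporin-8 loci, the level was 662 ± 138 FPKM in Ctrl, 75.8 ± 69.1 FPKM in Str and 531 ± 142 FPKM in Rec (SD, n = 3 each). LOC113637196 made up 21.3% of this sum in Ctrl, 12.8% in Str and 31.3% in Rec. The third locus, LOC113639646, was at 0 in 8 libraries and at 0.321 FPKM in Rec-2. The sequences of the neighboring loci were not compared here, so it is uncertain how reads that fit both were shared between them.

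Of the 12 aquaporin loci, 7 were tested. Of these, 2 rose in Rec vs. Str, namely both aquaporin-8 loci, against 868 of all tested genes (5.03%) that rose. Another 1 fell, against 709 of all tested genes (4.11%) that fell, and 4 did not pass. LOC113637196, chosen for its fall in Str vs. Ctrl, is 1 of the 2 that rose, so its rise was favored by the choice. With single libraries left out, 1 to 3 loci rose in Rec vs. Str. The one that fell, LOC113635038 (aquaporin-1-like, a water channel), had the opposite course to Aqp8. It had 258, 215 and 159.5 FPKM in Str, against 29.5, 31.2 and 51.0 FPKM in Ctrl, and 35.9, 19.2 and 51.4 FPKM in Rec. Its log2 fold change was 2.57 in Str vs. Ctrl (adjusted p = 0.0108 in edgeR) and -2.51 in Rec vs. Str (adjusted p = 0.00836 in edgeR), and it was called in all 18 alternatives of both comparisons. In Str the aquaporin-1-like locus thus stood above both aquaporin-8 loci, and in Ctrl and Rec below both. Aquaporin-11 (aqp11), an intracellular member in mammals, had 24.9, 28.7 and 25.7 FPKM in Rec, against 18.7, 5.50 and 7.60 FPKM in Str (log2 fold change 1.46, adjusted p = 0.0682 in edgeR). The other aquaporins that were tested, LOC113647935 (an uncharacterized protein by its first product and aquaporin-3-like by its second), LOC113637555 (aquaporin-3-like) and LOC113661765 (aquaporin-7, a glycerol channel), did not pass either, and their group means were at most 12.9 FPKM. The median log2 fold change of the 7 loci, LOC113637196 included, was 1.35 in Rec vs. Str and -1.03 in Str vs. Ctrl. Over all tested genes these medians were 0.03 and 0.00.

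Enpp7 also has further loci with the same product, on other scaffolds. LOC113650540 had 2.22, 156 and 6.20 FPKM in Rec, against 0.345, 0.0234 and 0 FPKM in Str and 3.12, 0.109 and 0.316 FPKM in Ctrl. The Rec value rests on Rec-2, the library in which LOC113650486 was lowest in Rec, and its edgeR adjusted p of 0.0490 in Rec vs. Str was met in 6 of 16 alternatives and not without Rec-2. LOC113662562 had 9.28, 7.15 and 2.06 FPKM in Rec, against 0.314, 0 and 0 FPKM in Str and 0.445, 0.220 and 1.71 FPKM in Ctrl (adjusted p = 0.0552 in edgeR for Rec vs. Str). Its Rec libraries were above all other libraries, a pattern that was not counted over all tested genes. LOC113650486 made up 98.9% of the summed Enpp7 level in Ctrl, 98.0% in Str and 72.5% in Rec. The sum itself was 187 ± 73.1 FPKM in Ctrl, 11.5 ± 7.66 FPKM in Str and 221 ± 38.5 FPKM in Rec (SD, n = 3 each). Rec-2 is also the library with the most genes of its own, 46 with at least 5 FPKM and at least 10 times the next library, against 11 to 31 in the others.

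The ENPP family holds phosphodiesterases that act on nucleotides or phospholipids. All 11 loci matched to it were tested, among them a merged locus, LOC113658025;LOC113658024, to which the table gives several products, a family member 3-like one being second after an unrelated protein. In Rec vs. Str, 3 rose, 1 fell and 7 did not pass. The 3 that rose were Enpp7 itself, LOC113650540, whose Rec value rests on Rec-2, and enpp6. With single libraries left out, 0 to 3 rose. In Str vs. Ctrl 1 fell, which was Enpp7 itself, chosen by this comparison, so its rise in Rec vs. Str was favored by the choice. Of all tested genes, 5.03% rose and 4.11% fell in Rec vs. Str, and 3.10% fell in Str vs. Ctrl. The gene enpp6, which in mammals releases phosphocholine from lysophospholipids, had 137, 232 and 129 FPKM in Rec, against 43.6, 69.5 and 40.2 FPKM in Str, and rose by a log2 fold change of 1.85 (adjusted p = 0.0259 in edgeR, called in 14 of 18 alternatives). In Str vs. Ctrl its log2 fold change was -1.35, with an adjusted p of 0.0768 in edgeR. In Rec vs. Str, enpp5 fell by 1.13 on the log2 scale (adjusted p = 0.0405 in edgeR, called in 7 of 18 alternatives), at 4.47, 3.26 and 4.13 FPKM in Rec, against 9.64, 6.62 and 11.9 FPKM in Str. The merged Enpp2-like locus LOC113658014;LOC113658015 (autotaxin, which makes lysophosphatidic acid in mammals) had a log2 fold change of 1.98 in Rec vs. Str (adjusted p = 0.0634 in edgeR). The 5 remaining loci were enpp4, LOC113637385, LOC113640178, LOC113652831 and the merged locus whose first product is unrelated. They had adjusted p of 0.341 or more in edgeR in Rec vs. Str, and group means of at most 11.9 FPKM.

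**Figure D4:**
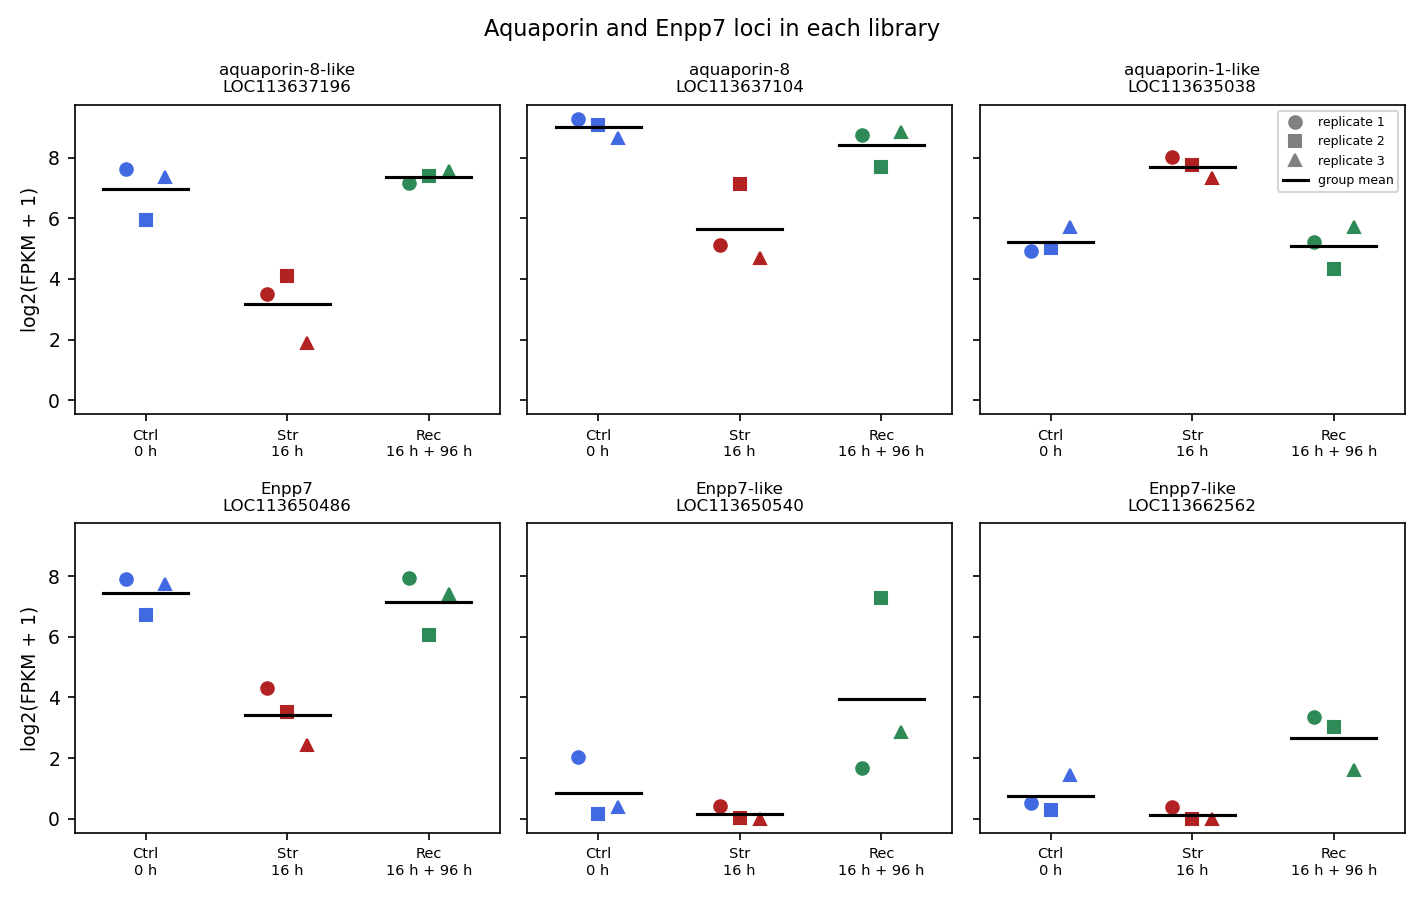
log2(FPKM + 1) in every library of the aquaporin-8 loci and the aquaporin-1-like locus (top) and of the Enpp7 loci (bottom), with the groups in order of time; symbols mark the replicate and black lines the mean of the log2 values. Both aquaporin-8 loci are low in Str, where the aquaporin-1-like locus lies between 159.5 and 258 FPKM, and LOC113650540 reaches 156 FPKM in Rec-2 alone.

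Enpp7 opens the digestion of sphingomyelin, and the enzymes that take ceramide further form the rest of its pathway. Of 59 sphingolipid loci, 50 were tested, the 3 Enpp7 loci included. In Rec vs. Str 7 rose, 2 fell and 41 did not pass, and in Str vs. Ctrl 6 fell, 2 rose and 42 did not pass. LOC113650486, chosen for its fall in Str vs. Ctrl, is among the 6 that fell and the 7 that rose. Of all tested genes, 5.03% rose and 4.11% fell in Rec vs. Str, and 3.10% fell and 2.78% rose in Str vs. Ctrl. The median log2 fold change was -0.26 in Str vs. Ctrl and 0.35 in Rec vs. Str, against -0.002 and 0.03 over all tested genes. Neutral ceramidase (asah2), which splits ceramide into sphingosine and a fatty acid, had 159, 164 and 132 FPKM in Rec, against 26.3, 13.5 and 10.2 FPKM in Str and 61.5, 36.8 and 67.1 FPKM in Ctrl. It rose in Rec vs. Str by a log2 fold change of 3.32 (adjusted p = 0.00821 in edgeR, called in all 18 alternatives). Unlike Enpp7, it lay above every Ctrl library in each Rec library, with a log2 fold change of 1.62 in Rec vs. Ctrl and an adjusted p of 0.812 in edgeR. How many of all tested genes lay above every Ctrl library in each Rec library was not counted.

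The genes smpdl3b and smpdl3a, named after acid sphingomyelinase though smpdl3a is known in mammals as a nucleotide phosphodiesterase, both fell in Str vs. Ctrl and rose in Rec vs. Str. The levels of smpdl3a were 3.65, 3.87 and 1.26 FPKM in Str, against 9.92, 16.9 and 11.4 FPKM in Ctrl, and 11.4, 11.6 and 6.49 FPKM in Rec. Its adjusted p in edgeR was 0.0394 in Str vs. Ctrl (called in 11 of 18 alternatives) and 0.0409 in Rec vs. Str (called in 9 of 18), and leaving out any single Ctrl or Str library, or Rec-1, ended the call in both comparisons. For smpdl3b the levels were 13.6, 28.9 and 11.4 FPKM in Str, against 79.4, 82.8 and 107 FPKM in Ctrl (log2 fold change -2.25, adjusted p = 0.0171 in edgeR). In Rec smpdl3b had 62.5, 72.2 and 108 FPKM, which gave 2.26 in Rec vs. Str (adjusted p = 0.0140 in edgeR, called in 17 of 18 alternatives). Ceramide synthase 1 (cers1), which joins a fatty acid to the sphingoid base, had 14.5, 10.5 and 5.88 FPKM in Str, against 38.3, 26.4 and 44.4 FPKM in Ctrl, and rose in Rec vs. Str by a log2 fold change of 1.93 (adjusted p = 0.0197 in edgeR). Sphingomyelin phosphodiesterase 2-like (smpd2) rose by 1.17 in Rec vs. Str (adjusted p = 0.0439 in edgeR, called in 5 of 18 alternatives). Not all genes that fell in Str vs. Ctrl passed in Rec vs. Str. Means in Ctrl, Str and Rec were 32.1, 10.7 and 13.6 FPKM for smpd1 and 8.16, 3.11 and 3.68 FPKM for sgms1. Their adjusted p in Rec vs. Str was 0.420 and 0.536 in edgeR. For both, every Rec library was below every Ctrl library, as for 7.42% of all tested genes (edgeR adjusted p in Rec vs. Ctrl 0.822 and 0.812).

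The 2 sphingolipid genes that fell in Rec vs. Str had risen in Str vs. Ctrl. Their count is near the 4.11% of all tested genes that fell in Rec vs. Str. Sphingosine-1-phosphate phosphatase 2-like (sgpp2) had 31.7, 54.3 and 45.1 FPKM in Str, against 9.23, 13.9 and 8.28 FPKM in Ctrl (log2 fold change 2.11, adjusted p = 0.0115 in edgeR). In Rec it had 5.87, 6.05 and 5.78 FPKM and fell by 2.77 on the log2 scale against Str (adjusted p = 0.00668 in edgeR, called in all 18 alternatives). Ceramide kinase (cerk) had 28.0, 22.5 and 35.1 FPKM in Str, against 4.67, 2.01 and 3.62 FPKM in Ctrl, and in Rec vs. Str it fell by 2.44 on the log2 scale (adjusted p = 0.0160 in edgeR).

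**Figure D5:**
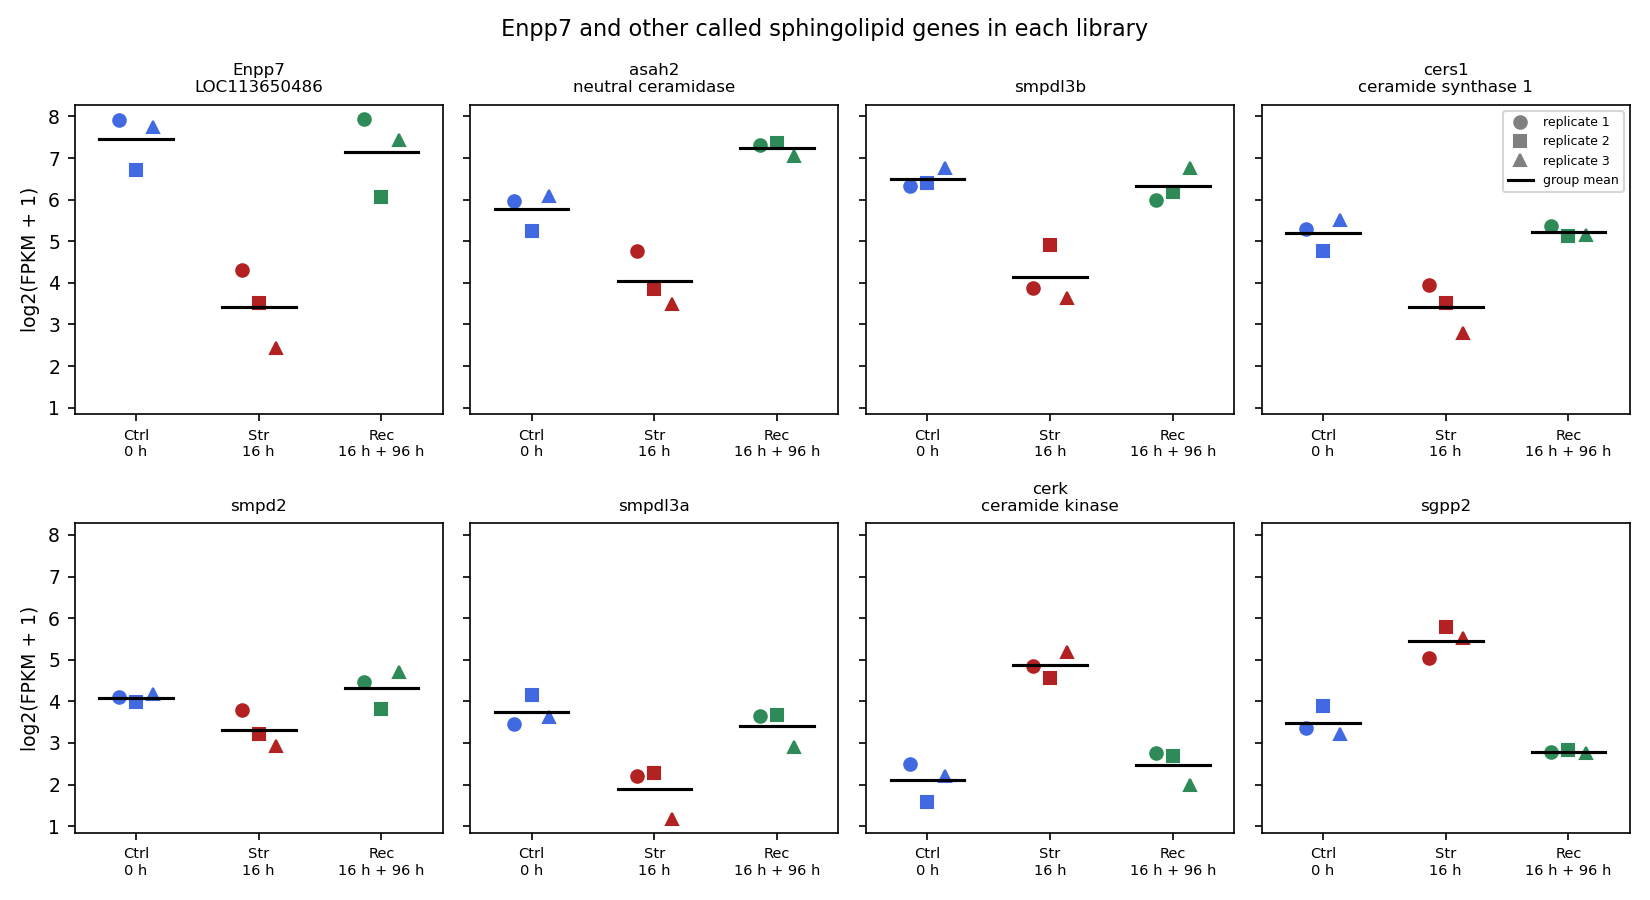
log2(FPKM + 1) in every library of Enpp7 and of the sphingolipid genes outside the Enpp7 loci that passed the test in Rec vs. Str, with the groups in order of time; symbols mark the replicate and black lines the mean of the log2 values. cerk and sgpp2 are high in Str, at 22.5 to 54.3 FPKM, and the other genes have their lowest group mean there.

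The only other locus with the product of Ptchd3, LOC113655516, was at 0 in 7 libraries and at no more than 0.0601 FPKM in the others. Of 15 loci of the Patched family and of other proteins with a sterol-sensing domain, 9 were tested. In Rec vs. Str, 0 passed in edgeR, a count near the shares of all tested genes, of which 5.03% rose and 4.11% fell. Before adjustment 3 were at p below 0.05 in edgeR, a measure for which no share over all tested genes is given, nor is one for DESeq2. DESeq2 called these 3, with Ptchd3 and npc1l1 higher and npc1 lower in Rec, and limma on log2(FPKM + 1) called 0. In Str vs. Ctrl, where 3.10% of all tested genes fell, Ptchd3, chosen by this comparison, was the only one of the 9 called in edgeR. The intestinal cholesterol transporter npc1l1 had 22.5, 34.2 and 40.9 FPKM in Rec, against 11.1, 23.1 and 6.91 FPKM in Str and 18.0, 42.9 and 27.1 FPKM in Ctrl (log2 fold change in Rec vs. Str 1.34, adjusted p = 0.114 in edgeR). The lysosomal transporter npc1 had a log2 fold change of -2.09 in Rec vs. Str (adjusted p = 0.0802 in edgeR). The receptor ptch1 was at 0.78 to 2.97 FPKM in all libraries, with an adjusted p of 0.484 in edgeR in Rec vs. Str. The median log2 fold change of the 9 loci was 0.49 for Rec against Str and -0.10 for Rec against Ctrl. Over all tested genes these medians were 0.03 and 0.004.

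In the Hedgehog pathway, to whose receptor Ptchd3 is related, 13 of 17 loci were tested, of which 1 rose and 12 did not pass in Rec vs. Str, a count near the 5.03% of all tested genes that rose. Indian hedgehog (LOC113654558), a ligand made by the gut epithelium in mammals, had 13.3, 12.02 and 10.6 FPKM in Str, against 22.7, 29.5 and 34.1 FPKM in Ctrl, and fell by 1.20 on the log2 scale (adjusted p = 0.0224 in edgeR). In Rec it had 27.5, 18.1 and 23.2 FPKM and rose against Str by a log2 fold change of 1.04 (adjusted p = 0.0287 in edgeR, called in 9 of 18 alternatives). Its log2 fold change in Rec vs. Ctrl was -0.16. The receptor component smo, at 0.79 to 2.43 FPKM, did not pass.

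Of 33 loci for intestinal ion transport, which sets the water flow that aquaporins carry, 18 were tested, and 1 rose, 2 fell and 15 did not pass in Rec vs. Str. Of all tested genes 5.03% rose, a share near that of the list, and 4.11% fell, a share below that of the list. With single libraries left out, 1 to 2 loci of the list fell. LOC113644342, a potassium-chloride cotransporter of the SLC12 family, had 1.23, 0.670 and 1.21 FPKM in Rec, against 5.83, 3.90 and 7.61 FPKM in Str (log2 fold change -2.38, adjusted p = 0.00821 in edgeR). Of the sodium pump subunits, LOC113648833 rose by a log2 fold change of 1.60 (adjusted p = 0.0465 in edgeR) and LOC113648762 fell by 0.99 on the log2 scale (adjusted p = 0.0485 in edgeR), with calls in 5 and 3 of 18 alternatives.

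The 9 libraries were also searched for the tested genes whose log2(FPKM + 1) was most correlated with that of each member. The members themselves and loci without a gene name were left out of the genes listed as most like each. This is a description without a p, since libraries of a group share their treatment. Enpp7 and Aqp8 had a Pearson r of 0.94 with each other, and 0.70 and 0.64 with Ptchd3. Most like Enpp7 were LOC113658731 (dimethylaniline monooxygenase, a flavin enzyme that oxidizes xenobiotics), with an r of 0.98, and cers1 and eci2 (an enzyme of fatty acid oxidation), with an r of 0.97 each. They were followed by LOC113654820 (cGMP-dependent protein kinase 1-like) and LOC113638688 (probetacellulin-like, a growth factor precursor), with an r of 0.96 each.

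Most like Aqp8 were slc5a9, a sodium-coupled sugar transporter, and LOC113660202 (harmonin, a scaffold protein of microvilli), with an r of 0.99 each. For harmonin the levels were 109, 111 and 143 FPKM in Rec, against 40.9, 48.0 and 17.5 FPKM in Str and 133, 88.1 and 128 FPKM in Ctrl. As with Aqp8, Ctrl-2 was the lowest Ctrl library and Str-3 the lowest of all. The next genes were dhdh, tmem82 and LOC113658924 (D-threo-3-hydroxyaspartate dehydratase-like), with r of 0.98 each.

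Most like Ptchd3 were LOC113661246 (r = 0.97, with no product given), LOC113635173 (acetylcholinesterase, r = 0.97), LOC113652607 (aminopeptidase N, a brush border peptidase, r = 0.96), itgb5 (integrin beta-5, r = 0.95) and LOC113645379 (histone H2B, r = 0.95). The peptidase LOC113652607 had 124, 172 and 94.4 FPKM in Rec, against 85.0, 75.4 and 68.2 FPKM in Str and 206, 250 and 189 FPKM in Ctrl. Its Rec libraries thus lay between the other groups without overlap. Of all tested genes, 7.42% had every Rec library below every Ctrl library, and 11.8% had every Rec library above every Str library. Since these genes were picked for the likeness, their own courses are no support for those of the 3 genes.

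Genes beside the 3 loci were examined next. As background in edgeR, 3.10% of all tested genes were called lower and 2.78% higher in Str than in Ctrl. From Str to Rec, 5.03% were called higher and 4.11% lower. With only 3 to 11 tested genes around a locus, 1 call already exceeds each of these shares. For counts of neighbors by unadjusted p or DESeq2, no share over all tested genes is given. Whether neighbors passed more often than other genes was not tested. Within 100 kb of Enpp7, 5 genes were tested. In Str vs. Ctrl 0 of them passed in edgeR, with 4 at p below 0.05 before adjustment and 1 called by DESeq2. These 4 include tmem100, which was higher in Str (log2 fold change 1.17). In Rec vs. Str 1, tmem100, fell. The Str mean was below the Ctrl mean for 4 of the 5, all but tmem100. These are not the same 4, since they include LOC113650487, with an adjusted p of 0.575 in edgeR. Another is cbx2 (chromobox protein homolog 2), with a mean of 0.752 FPKM in Str, against 3.10 FPKM in Ctrl, and 2.37 FPKM in Rec. The log2 fold change of cbx2 was -2.03 in Str vs. Ctrl (adjusted p = 0.0522 in edgeR) and 1.75 in Rec vs. Str (adjusted p = 0.0652 in edgeR). For pctp (phosphatidylcholine transfer protein) the mean was 4.36 FPKM in Str, against 8.64 FPKM in Ctrl, and 7.70 FPKM in Rec. Within 100 kb of Ptchd3, 3 genes were tested and 0 passed in edgeR in either comparison, with 1 at p below 0.05 before adjustment in each and 1 called by DESeq2, in Rec vs. Str. Around Aqp8, 11 genes were tested, and beside LOC113637104 only grid2ip passed, which rose in Str vs. Ctrl by a log2 fold change of 2.76 and fell in Rec vs. Str.

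Enterocyte genes, which mark the absorbing cells of the gut, were abundant in every library, and their summed level was lowest in Str. Of 24 brush border and enterocyte loci 21 were tested. Of these 9 rose in Rec vs. Str, where the share over all tested genes was 5.03%. In Str vs. Ctrl their median log2 fold change was -1.24, against -0.002 over all tested genes. There edgeR called 0 of the list, with 7 at p below 0.05 before adjustment, DESeq2 called 5 and limma 2. For counts by unadjusted p, DESeq2 or limma, no share over all tested genes is given in Str vs. Ctrl or Rec vs. Str. Summed, the list had 4958 to 10939.7 FPKM in Ctrl libraries, 2497 to 3495 FPKM in Str libraries and 13006 to 25028 FPKM in Rec libraries, so the groups did not overlap. The sum was thus higher in Rec than in Ctrl, while Ptchd3 was lower. The brush border peptidase LOC113652607, picked above for its likeness to Ptchd3, also had a lower mean in Rec, 130 FPKM, against 215 FPKM in Ctrl (adjusted p = 0.892 in edgeR). In Rec vs. Ctrl edgeR called 0 of the 21 genes, with 9 at p below 0.05 before adjustment, DESeq2 called 3 and limma 0. Over all 17244 tested genes, 1002 were below 0.05 in edgeR before adjustment, DESeq2 called 115 and limma 0. Of 9 leukocyte markers, all tested, 4 fell in Str vs. Ctrl, where the share over all tested genes was 3.10%. In Rec vs. Str 3 of these markers rose, against the same 5.03%. They had a sum of 159 to 406 FPKM in Ctrl libraries, 65.1 to 105 FPKM in Str libraries and 111 to 255 FPKM in Rec libraries. Among the goblet cell (4 tested), liver (6 tested) and exocrine pancreas markers (6 tested) edgeR called 0 in any comparison. In Rec vs. Str, 2 of each of these lists were at p below 0.05 before adjustment, and DESeq2 called 2, 1 and 1. In Str vs. Ctrl, the unadjusted count was 0, 2 and 4, DESeq2 called 0, 2 and 1, and limma 0, 1 and 0. Liver markers summed to 8.33 to 14.6 FPKM in Ctrl libraries, 16.2 to 77.0 FPKM in Str libraries and 5.40 to 18.8 FPKM in Rec libraries, with a median log2 fold change of 1.82 in Str vs. Ctrl. Of 17 smooth muscle genes tested 1 rose in Str vs. Ctrl and 2 fell in Rec vs. Str. The matching shares over all tested genes were 2.78% and 4.11%. Pancreas markers summed to 371 FPKM in 1 Ctrl library and to 29.7 FPKM or less in Rec. The part of these cell types in the levels of the 3 genes was not tested.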

How the data were processed

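RNA of the posterior intestine was sequenced in 9 fish. Per the study's methods and the submitters' processing notes, reads were trimmed, mapped to the yellow catfish genome and assembled with tools that include HISAT and StringTie, whose versions are not given. The authors deposited FPKM per gene. They also deposited expected counts, which are whole numbers. No source states how the authors made them. All value columns of the table belong to the 9 libraries.

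The counts were tested with edgeR 4.0.16 (TMM scaling, quasi-likelihood F-test, two-sided, all 9 libraries, 17244 genes that reached 1 FPKM in 3 or more libraries, Benjamini-Hochberg adjustment, threshold 0.05). Alternatives used DESeq2 1.42.0 and limma 3.58.1 (R 4.3.3). Ratios between genes were tested with scipy 1.17.1. The fits were tested on simulated data.

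The 3 genes and the 12 gene lists were chosen with earlier results of these data known, and 5 genes that matched a list by name only were removed after values were seen. Named are the 3 genes, the loci of their families and the 5 genes most correlated with each, members and loci without a gene name left out. Up to 3 genes per pathway list with the smallest p in Rec vs. Str are also named. Further sphingolipid genes, and npc1l1, npc1, ptch1 and smo beyond that rule, were chosen after their values were seen. Genome sequence was not used here, and results for some single genes are left out.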

Additional observations from a re-analysis of the deposited data

How the results depend on the processing

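No alternative turned the direction of a member's fold change in Str vs. Ctrl or Rec vs. Str. Ptchd3 in Rec vs. Str passed the test with the filter at 1 FPKM in all 9 libraries (log2 fold change 2.18, adjusted p = 0.0498) and in DESeq2 (2.20, adjusted p = 0.00282). With single libraries left out, the log2 fold change in Rec vs. Str was 3.45 to 4.50 for Enpp7, 3.74 to 4.79 for Aqp8 and 1.29 to 2.64 for Ptchd3; Enpp7 was no longer called without Str-3 and Ptchd3 was called without Rec-3. In Rec vs. Ctrl it was -0.57 to 0.31 for Enpp7, -0.04 to 0.92 for Aqp8 and -2.92 to -1.62 for Ptchd3, none called in edgeR. The difference in log2 ratio of Aqp8 over Ptchd3 was 2.23 to 3.70 in Rec vs. Ctrl and that of Enpp7 over Ptchd3 1.47 to 3.42. Called genes of the lists changed more: with single libraries left out, 1 to 6 sphingolipid genes and 0 to 3 ENPP genes rose in Rec vs. Str.

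The replicate numbers do not pair the libraries (correlations of same-numbered deviations between -0.28 and 0.25). With the replicate block, the log2 fold change in Rec vs. Str was 3.87 for Enpp7, 4.34 for Aqp8 and 1.98 for Ptchd3, with the same calls.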
